A study of Mus musculus with 96 samples.

Results

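The cells described here are 51 single cells from the spleens of 2 mice with acute myeloid leukemia, compared by their level of Mcpt8, the gene of mast cell protease 8. They were chosen from 96 cells by 3 measured values. Cells with H2-Aa (an MHC class II chain of antigen-presenting cells) and S100a8 (a calcium-binding protein of neutrophils) both below 1000 TPM were kept, which left 33 of 48 cells of mouse 1 and 18 of 48 cells of mouse 2. TPM scales the transcripts of a cell to 1000000, so a value is the share of the cell's RNA that a gene takes. Cells with Mcpt8 at 100 TPM or more are called Mcpt8-high and the others Mcpt8-low. There were 12 Mcpt8-high and 21 Mcpt8-low cells in mouse 1, and 6 and 12 in mouse 2. The levels of Mcpt8, H2-Aa and S100a8 chose the cells and are no result here.

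The study asked how loss of Dnmt3a, a DNA methyltransferase, changes leukemia driven by an internal tandem duplication in the receptor kinase Flt3. Both mice carried the same genotype, Flt3ITD/ITD;Dnmt3afl/- with MxCre, a Cre recombinase under an interferon-inducible promoter that is not restricted to blood cells. Both were moribund, their ages are not given in the sources used here, and their splenocytes were enriched on beads for c-Kit, the stem cell factor receptor. Each cell was captured on a microfluidic chip and sequenced as its own library. No cells of another genotype were compared, so no value here is an effect of Dnmt3a or Flt3. Cells were captured in 2 rounds with 48 cells of each sequenced, and the columns of the TPM table begin with either of 2 prefixes, 1 for each mouse. No label gives a cell's round, so mouse and any such batch cannot be told apart. There were 2 animals, and cells of 1 animal are not replicates: each difference below is given for each mouse on its own, with its spread over cells (SD) as a description, and none carries a test.

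Mcpt8 encodes a granule serine protease that, in the normal mouse, is a selective marker of basophils. Basophils and mast cells are granulocytes that release histamine and proteases when their IgE receptor is engaged. Mature basophils carry the protease Prss34, the IgE receptor chains Fcer1a and Ms4a2, and the surface proteins Cd200r3 and Itga2. Mast cells carry chymases and tryptases such as Cma1, Mcpt4, Tpsb2 and Tpsab1. Cpa3, a carboxypeptidase, is used by both, and Hdc makes histamine. Both lineages arise from myeloid progenitors that also give neutrophils and monocytes, which at that stage make Mpo and the azurophil granule proteases Ctsg, Prtn3 and Elane.

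The data went against a basophil or mast cell name for the Mcpt8-high cells. Prss34, Fcer1a, Cd200r3, Itga2, Cma1, Mcpt4, Tpsb2 and Tpsab1 were listed at 0 TPM in every one of the 51 cells. Cpa3 was below 10 TPM in 8 of 12 Mcpt8-high cells of mouse 1 and 5 of 6 of mouse 2, and Hdc in all but 1 cell of each mouse. Genes that were higher with Mcpt8 in both mice included Mpo, Ctsg, Irf8 and Ccl9. The cells are therefore called by their rule alone.

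Mcpt8 lies on chromosome 14 from base 56082166 to 56085273 on the minus strand (GRCm38, GENCODE), in the cluster of mast cell chymases, Ctsg and granzymes, and the annotation places the microRNA gene Mir6949 inside it. Ctsg is the next protein-coding gene, from 56099881 to 56102574, with 14607 bases between them. Promoter sequence is shown for these adjacent genes and for Cpa3, a marker that did not follow Mcpt8. The sequences are from RefSeq (GRCm38.p6) and run 5′ to 3′ over the 250 bases before each RefSeq start. Mcpt8 spans chr14:56085198-56085447 on the minus strand, Ctsg chr14:56102575-56102824 on the minus strand and Cpa3 chr3:20242182-20242431 on the minus strand. Capitals mark matches to any of 4 motifs on either strand.
Mcpt8: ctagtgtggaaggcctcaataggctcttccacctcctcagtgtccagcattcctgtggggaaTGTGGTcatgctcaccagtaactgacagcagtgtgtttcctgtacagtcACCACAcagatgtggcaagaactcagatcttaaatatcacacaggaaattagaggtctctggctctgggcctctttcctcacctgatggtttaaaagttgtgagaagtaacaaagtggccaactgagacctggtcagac
Ctsg: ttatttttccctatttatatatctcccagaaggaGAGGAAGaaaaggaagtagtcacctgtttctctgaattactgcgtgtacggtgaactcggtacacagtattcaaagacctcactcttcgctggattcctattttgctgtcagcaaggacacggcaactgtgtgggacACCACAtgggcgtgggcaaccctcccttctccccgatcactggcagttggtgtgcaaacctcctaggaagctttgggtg
Cpa3: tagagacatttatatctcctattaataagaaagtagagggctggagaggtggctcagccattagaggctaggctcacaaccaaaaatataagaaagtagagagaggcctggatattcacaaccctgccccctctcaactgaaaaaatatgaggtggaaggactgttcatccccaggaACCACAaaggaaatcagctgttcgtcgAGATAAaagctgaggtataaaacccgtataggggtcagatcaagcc
The motifs searched were AGATAA for GATA factors, TTNNGNAA for C/EBP factors, GAGGAAG for PU.1 and TGTGGT for RUNX factors. The Mcpt8 window held 2 RUNX matches and no match to the other motifs. The Ctsg window held 1 PU.1 and 1 RUNX match, and the Cpa3 window held 1 GATA and 1 RUNX match. Among 32851 promoters of the same length, the share with a match was 9.99% for the GATA letters, 36.9% for C/EBP, 10.6% for PU.1 and 14.1% for RUNX. A match to letters is a description and not a binding site.

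Mcpt8 set the groups, so its levels here are a description and no result. In mouse 1 its level in the Mcpt8-high cells had a lowest value of 108 TPM, a median of 464 and a highest value of 1723. In mouse 2 the lowest was 153, the median 413 and the highest 4503. The Mcpt8-low cells had a median of 0 in both mice, and the cells nearest the threshold from below were at 70.8 in mouse 1 and 60.3 in mouse 2. The Mcpt8-high share of the compared cells was 36.4% in mouse 1 (exact 95% interval 20.4 to 54.9) and 33.3% in mouse 2 (13.3 to 59.01), intervals that cover the counting of cells only. In the 34 cells left out for high class II, 14 of mouse 1 and 20 of mouse 2, the highest Mcpt8 value was 5.41 TPM. The authors' RPKM table, a second quantification in which most values of a gene sit at a floor, gave a weaker picture. There Mcpt8 was above its floor of 1.72 RPKM in 4 of 12 and 2 of 6 Mcpt8-high cells, and in 2 of 21 and 0 of 12 Mcpt8-low cells. The Spearman correlation of Mcpt8 between the 2 tables, over the compared cells, was 0.44 in mouse 1 (33 cells) and 0.54 in mouse 2 (18 cells).

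Libraries differed in how many genes they detected. The median number of genes at 1 TPM or more was 4252 in Mcpt8-high and 3667 in Mcpt8-low cells of mouse 1, and 3881 against 4261 in mouse 2, so the order turned between the mice. Read depth is unknown from TPM. The values of 12 housekeeping genes were listed at 0 in 5.56% to 7.14% of cases in the 4 groups, so a 0 can be a missed transcript. Among the Mcpt8-low cells of mouse 1, cell 35 was led by the platelet gene Pf4 and cell 16 by the erythroid gene Car1. They are kept here, and counts without them stand beside the counts that rest on them.

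Across 9007 genes other than Mcpt8 with a mean of at least 1 TPM in the compared cells of each mouse, the mean log2(TPM + 1) of Mcpt8-high cells minus that of Mcpt8-low cells was taken within each mouse. For genes of low level this scale makes a change look smaller than it is. A difference of 1 or more is called higher, and of -1 or less lower. In mouse 1, 16.6% of genes were higher and 10.4% lower. In mouse 2, 21.4% were higher and 15.6% lower. A total of 367 genes were higher in both mice, which is 4.07% of all. They were 24.5% of those higher in mouse 1, beside 21.4% of all genes higher in mouse 2. They were 19.1% of those higher in mouse 2, beside 16.6% of all genes higher in mouse 1. A total of 175 genes (1.94%) were lower in both mice. They were 18.7% of those lower in mouse 1 and 12.4% of those lower in mouse 2, beside 15.6% and 10.4% of all genes. The overlap was thus little above these shares, so a call in both mice is a description and no sign of replication. Without cells 35 and 16 of mouse 1 the counts were 347 and 186. The counts depended on the scale and the table: they were 61 and 29 with a pseudocount of 10, and 26 and 17 in the RPKM table over 6776 shared genes. With a Mcpt8 threshold of 30 TPM they were 580 and 110. Genes that were higher in 1 mouse and lower in the other made up 2.94% (higher in mouse 1) and 2.28% (higher in mouse 2). The median difference over all genes was 0.11 in mouse 1 and 0.06 in mouse 2. Across genes, which are not independent replicates, the Pearson correlation of the 2 mice's differences was 0.02. Most of what set the groups apart in 1 mouse was thus not seen in the other.

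**Figure D1:**
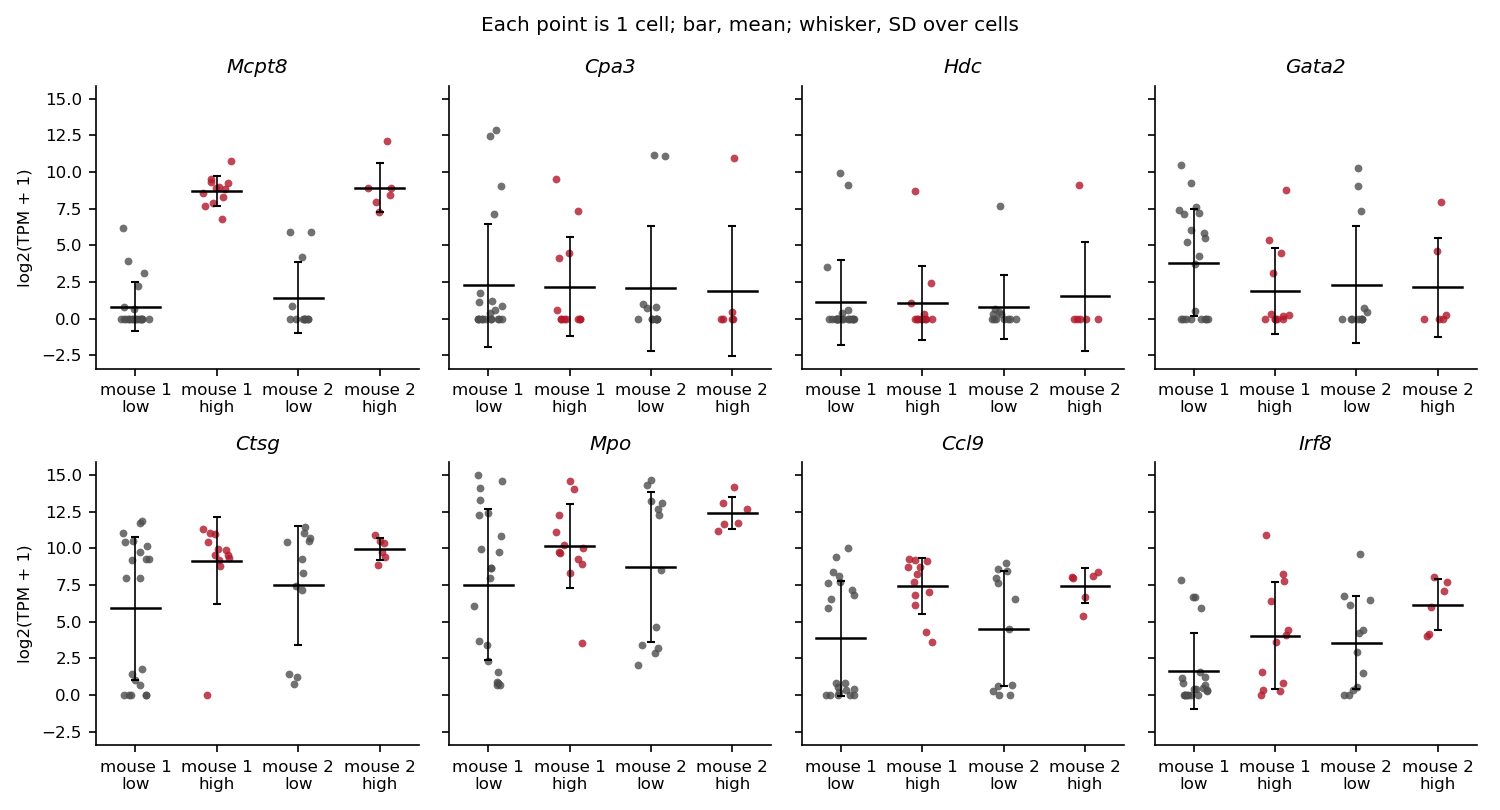
Levels of 8 genes in each compared cell, as log2(TPM + 1) on the vertical axis, for Mcpt8-low (grey) and Mcpt8-high (red) cells of each mouse; the bar is the mean and the whisker the SD over cells. The Mcpt8 groups are apart by construction, Cpa3, Hdc and Gata2 have cells near 0 and cells above 100 TPM in both groups, and the Mcpt8-high cells of mouse 2 have Mpo at 2348 TPM or more.

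The granule protease list of basophils and mast cells was the first group asked about. Besides Mcpt8 only Cpa3 passed the mean filter, and it did not follow Mcpt8. Of the 11 members besides Mcpt8, 9 were listed at 0 in all 51 cells: Prss34, Mcpt4, Cma1, Tpsb2, Tpsab1, Tpsg1, Mcpt1, Mcpt2 and Mcpt9. The other two were Cpa3 and Gzmb, the gene of granzyme B, a protease of cytotoxic cells that some granulocytes also carry.

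Cpa3 reached 10 TPM in 4 of 12 Mcpt8-high and 4 of 21 Mcpt8-low cells of mouse 1, and in 1 of 6 and 2 of 12 cells of mouse 2. In the Mcpt8-high cells its median was 0 TPM in both mice and its highest values were 717 in mouse 1 and 1979 in mouse 2. In the Mcpt8-low cells the median was also 0, and the highest values were 7403 and 2306. The groups overlapped fully, and the cells with the most Cpa3 in each mouse had no Mcpt8. The difference was -0.09 in mouse 1 (SD over cells 3.37 in high and 4.20 in low cells) and -0.16 in mouse 2 (SD 4.44 and 4.25). Gzmb did not pass the mean filter in both mice and reached 10 TPM in 1 of 12 Mcpt8-high and 3 of 21 Mcpt8-low cells of mouse 1, with 0 in every compared cell of mouse 2.

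Most neighbours of Mcpt8 in its cluster were listed at 0. From Cma1 to Gzmb, bases 55941451 to 56262260 of chromosome 14, 15 protein-coding genes had a row. The 12 listed at 0 in all compared cells were Cma1, Cma2, Mcpt1, Mcpt9, Mcpt2, Mcpt4, Gzme, Gzmd, Gzmg, Gzmn, Gzmf and Gzmc. Mcpt8 was at 10 TPM or more in 23 of the 51 cells, Ctsg in 38 and Gzmb in 4. These genes share sequence, and how reads that fit several of them were divided was not examined.

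The mediator genes did not follow as a group. Of 12 members, 6 passed the mean filter, and their median difference was -0.22 in mouse 1 and 0.17 in mouse 2. Hdc was at 10 TPM or more in 1 of 12 Mcpt8-high and 3 of 21 Mcpt8-low cells of mouse 1, and in 1 of 6 and 1 of 12 of mouse 2. Its highest values were 419 TPM in a Mcpt8-high and 993 in a Mcpt8-low cell of mouse 1, and 544 and 200 in mouse 2. The medians were 0 in all 4 groups, and the differences were -0.08 and 0.73, the latter resting on 1 cell. Slc18a2, the transporter that loads histamine and other amines into granules, had differences of -1.56 and -0.54. Srgn, the granule proteoglycan serglycin, was abundant in every group, with medians of 2208 and 2101 TPM in Mcpt8-high and Mcpt8-low cells of mouse 1 and 896 and 2549 in mouse 2. Alox5ap, which presents arachidonic acid to 5-lipoxygenase for leukotriene synthesis, was higher in both mice, by 1.14 and 1.16. It was the 1 member of the 6 that was (16.7%, against 4.07% of all genes). Its Mcpt8-high medians were 600 and 658 TPM against 421 and 485 in Mcpt8-low cells, and the ranges overlapped. Its call was lost when single cells were left out: without Mcpt8-low cell 16 or 45 of mouse 1 its difference there was 0.76, and without Mcpt8-low cell 52 of mouse 2 it was 0.43 in that mouse. Leaving out Mcpt8-low cell 19 or 58, or Mcpt8-high cell 26, 41, 75 or 89, also brought it below 1, to between 0.82 and 0.99. The prostaglandin synthesis genes Hpgds, Ptgs1 and Ptgs2 were below the filter, and Alox15 and Tph1 were listed at 0.

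The IgE receptor and its signalling genes did not follow as a group. Fcer1a was listed at 0 in all compared cells. Ms4a2, the beta chain, was above 10 TPM in 1 cell, Mcpt8-high cell 67 of mouse 2, at 38.8 TPM. Fcer1g, the gamma chain that also serves other Fc receptors of myeloid cells, had a difference of 1.93 in mouse 1 and -2.44 in mouse 2. Its Mcpt8-high and Mcpt8-low medians were 427 and 255 TPM in mouse 1, and 380 and 736 in mouse 2. The difference between the mice was not tested. Of the 11 members over the filter, 0 were higher in both mice and 0 lower in both, against 4.07% and 1.94% of all genes, shares at which 11 genes can easily give none. The kinases Lyn (-1.92 and 0.98) and Syk (0.67 and -1.06), which act below the receptor, and the adaptor Lcp2 (0.14 and -2.45) likewise had opposite signs in the 2 mice. The adaptor Lat2 (0.42 and 0.70), the phosphatase Inpp5d (0.83 and 0.67), the adaptor Gab2 (-0.41 and -0.20) and the adaptor Lat (-1.41 and -0.02) had the same sign in both.

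Cytokine receptors and adhesion genes had 13 of 20 members over the filter, 0 of them higher in both mice and 0 lower in both, counts too small to set apart from the 4.07% and 1.94% of all genes. Il3ra, the receptor chain for interleukin-3, which expands basophils, had differences of 1.55 and 0.70, from 3 of 12 and 1 of 6 Mcpt8-high cells at 10 TPM or more. In Mcpt8-low cells 1 of 21 and 1 of 12 reached that level. Kit had a median of 57.2 TPM in Mcpt8-high and 69.02 in Mcpt8-low cells of mouse 1, and 39.7 and 11.3 in mouse 2, with differences of -0.50 and 0.84. Il1rl1, the interleukin-33 receptor of mast cells and basophils, had a highest value of 0.31 TPM in the Mcpt8-high cells. Itga2, Enpp3 and Ccr3, surface proteins of basophils, were listed at 0 throughout.

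Of 29 transcription factors, 23 passed the filter and 1, Irf8, was higher in both mice, which is 4.35% and near the 4.07% of all genes. Irf8 drives monocyte and dendritic cell fates and is also needed for basophil and mast cell progenitors in the mouse. In mouse 1 it ranged from 0 to 1913 TPM in Mcpt8-high cells with a median of 13.7, against a median of 0.33 and a highest value of 225 in Mcpt8-low cells. In mouse 2 all 6 Mcpt8-high cells were at 15.5 TPM or more with a median of 99.9, and the Mcpt8-low cells had a median of 12.2 and a highest value of 770. The differences were 2.40 and 2.59. Gata2, which basophils and mast cells require, went the other way in mouse 1. It reached 10 TPM in 3 of 12 Mcpt8-high and 12 of 21 Mcpt8-low cells there, and in 2 of 6 and 3 of 12 of mouse 2, with differences of -1.95 and -0.18. Gata1 and Mitf were below the filter, with no Mcpt8-high cell at 10 TPM. Meis1, a self-renewal factor of leukemia cells, was lower in mouse 1 (-1.21) and higher in mouse 2 (2.86), a difference between the mice that was not tested.

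Among 15 cytokines and chemokines, 8 passed the filter, and 2 of these, Ccl9 and Ccl3, were higher in both mice (25%, against 4.07% of all genes). The list's medians were 0.49 in mouse 1 and 0.79 in mouse 2. Ccl9, a chemokine of myeloid cells, had the largest smaller-mouse difference of the 6 lists, 3.56 in mouse 1 and 2.92 in mouse 2, but in the RPKM table the differences were 0.09 and -0.03. All 12 and all 6 Mcpt8-high cells had at least 10 TPM, against 10 of 21 and 7 of 12 Mcpt8-low cells. Its Mcpt8-high medians were 256 and 263 TPM, while the Mcpt8-low medians were 0.79 and 57.7 with highest values of 1066 and 513. The Mcpt8-high cells thus lacked the low end of the range and did not exceed the top of it. Ccl3, a chemokine of activated myeloid cells, differed by 1.98 and 1.80, from 6 of 12 and 2 of 6 Mcpt8-high cells at 10 TPM or more against 6 of 21 and 0 of 12. Without Mcpt8-high cell 67 its difference in mouse 2 was 0.77. Il4, the interleukin that basophils release, was seen in 2 compared cells, at 257 TPM in Mcpt8-high cell 64 of mouse 2 and at 352 in Mcpt8-low cell 33 of mouse 1. Il13, Il6, Il9, Areg and Csf1 were listed at 0.

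Over the 6 lists together, 103 genes besides Mcpt8 were in the table, 62 passed the filter, 21 were listed at 0 in all compared cells and the other 20 lay below the filter. Of the 62, 4 were higher in both mice (6.45%, against 4.07% of all genes) and 0 were lower in both (1.94% of all genes). In mouse 1, 12.9% of them were higher and 17.7% lower, and in mouse 2, 21% were higher and 14.5% lower, beside the shares of all genes given above. Their median difference was -0.07 in mouse 1 and 0.26 in mouse 2. Without cells 35 and 16 of mouse 1, the number higher in both was 3, since Alox5ap was at 0.77 in mouse 1. A gene can pass the filter through a few cells of 1 group, so these counts describe the members that passed and not all members.

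**Figure D2:**
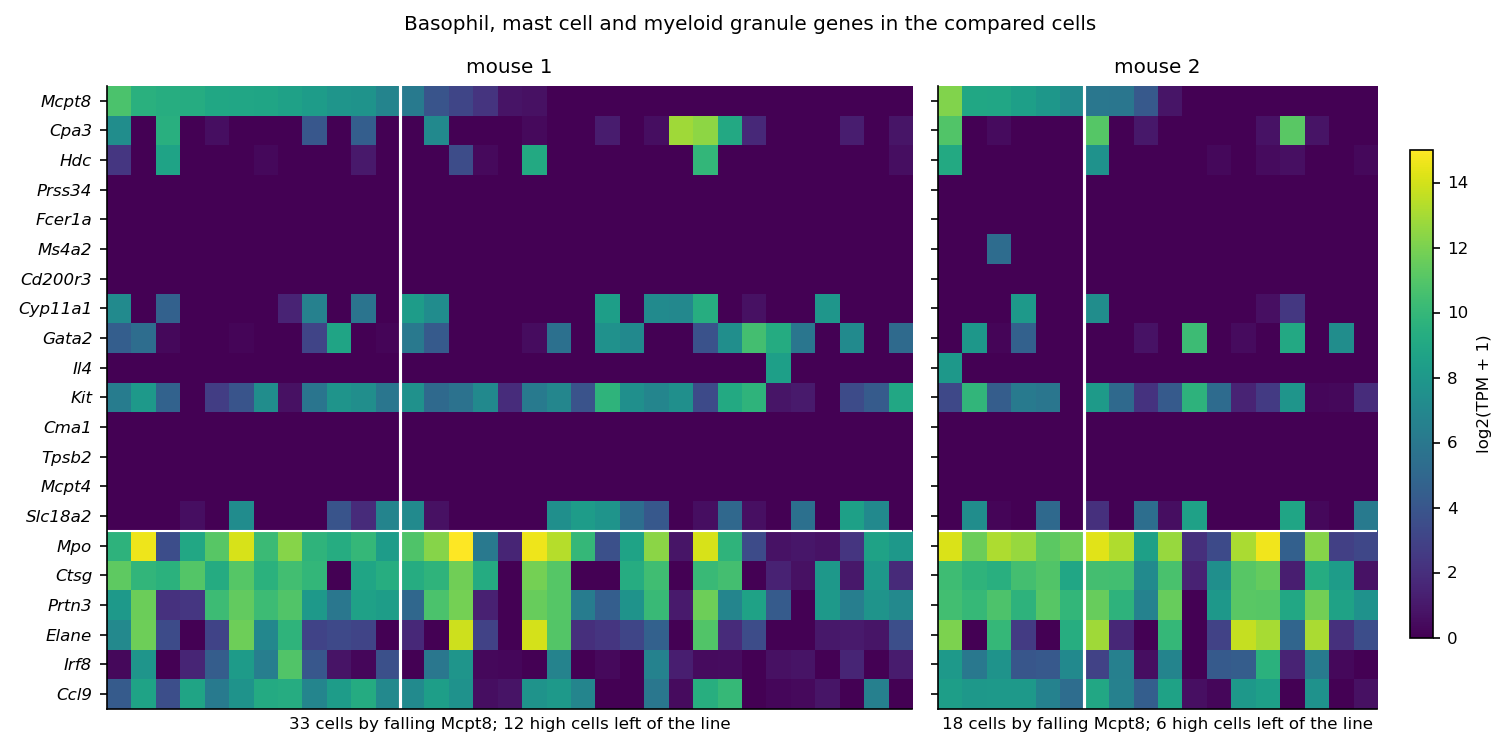
Levels, as log2(TPM + 1) in color, of 21 genes (rows) in the 33 compared cells of mouse 1 and the 18 of mouse 2 (columns), ordered by falling Mcpt8, with the Mcpt8-high cells left of the white vertical line. Basophil and mast cell genes are above the horizontal line and granule and myeloid genes below it; Prss34, Fcer1a, Cd200r3, Cma1, Tpsb2 and Mcpt4 are blank throughout, and Cpa3 and Hdc are scattered over both sides.

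Within single cells the basophil genes were rarely found together, though few of them could be. Of the 11 basophil identity genes other than Mcpt8, 5 were listed at 0 in all compared cells. Ms4a2 reached 10 TPM in 1 cell. At least 3 of the 11 reached 10 TPM in 2 of 12 Mcpt8-high and 2 of 21 Mcpt8-low cells of mouse 1, and in 1 of 6 and 1 of 12 of mouse 2. At least 1 did so in 6 of 12 and 17 of 21 cells of mouse 1, and in 4 of 6 and 4 of 12 of mouse 2. Read from the other side, Mcpt8-high cells made up 4 of the 8 cells with Cpa3 at 10 TPM in mouse 1 and 1 of 3 in mouse 2. For Hdc they were 1 of 4 and 1 of 2, for Cyp11a1 4 of 11 and 1 of 2, and for Gata2 3 of 15 and 2 of 5. Cyp11a1, a steroid-synthesis enzyme also made by mouse basophils and mast cells, had differences of -0.53 and 0.49.

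A few cells did combine these genes. Cell 64 of mouse 2 had Mcpt8 at 4503 TPM, Cpa3 at 1979, Hdc at 544 and Il4 at 257, together with Mpo at 18513 and Elane at 4214, and without Gata2 or Cyp11a1. Cell 46 of mouse 1 had Mcpt8 at 649, Cpa3 at 717, Hdc at 419 and Cyp11a1 at 24.6, with Mpo at 10.6. Cell 6 of mouse 1 had Mcpt8 at 1723, Cpa3 at 160, Cyp11a1 at 146 and Gata2 at 21.3. The combination was also found in some Mcpt8-low cells. Cell 1 of mouse 1, with Mcpt8 at 13.9, had Cpa3 at 136, Cyp11a1 at 158 and Gata2 at 17.9. Mcpt8-low cell 53 of mouse 2, with Mcpt8 at 60.3, had Cpa3 at 2132, Hdc at 200 and Cyp11a1 at 166. Mcpt8-low cell 23 of mouse 1 had no Mcpt8 but Cpa3 at 5638, Hdc at 993 and Cyp11a1 at 644, and its Mpo was 17608. None of these cells had Prss34, Fcer1a or Ms4a2 above 0. How the combination relates to lower levels of Mcpt8 was not tested.

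Some genes of granulocyte-monocyte progenitors were higher with Mcpt8 in both mice, while the list as a whole was not. Of the 13 members over the filter, 4, Mpo, Ctsg, Prtn3 and Clec12a, were higher in both (30.8%, against 4.07% of all genes) and 0 lower in both. The list's median difference was 1.27 in mouse 1 and -0.08 in mouse 2, where 2 members were lower. Its summed level overlapped between the groups, from 4959 to 38216 TPM in Mcpt8-high and 2005 to 73270 in Mcpt8-low cells of mouse 1, and from 7422 to 34639 and 2417 to 55891 in mouse 2.

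Mpo, myeloperoxidase, ranged from 10.6 to 24827 TPM with a median of 951 in the Mcpt8-high cells of mouse 1, and from 0.63 to 32576 with a median of 404 in the Mcpt8-low cells. In mouse 2 it ranged from 2348 to 18513 with a median of 5009 in Mcpt8-high cells, and from 3.09 to 26342 with a median of 2628 in Mcpt8-low cells. All 6 Mcpt8-high cells of mouse 2 were above 1000 TPM, while the Mcpt8-low cells of both mice held the highest levels as well as the lowest. The differences were 2.64 (SD 2.87 in high and 5.16 in low cells) and 3.69 (SD 1.12 and 5.13).

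Ctsg, cathepsin G, is the gene next to Mcpt8. In mouse 1, 11 of 12 Mcpt8-high and 12 of 21 Mcpt8-low cells reached 10 TPM, and in mouse 2 it was 6 of 6 and 9 of 12. Its Mcpt8-high median was 845 TPM in mouse 1 and 1080 in mouse 2, and its Mcpt8-low median 253 and 475. The differences were 3.26 (SD 2.99 and 4.88) and 2.49 (SD 0.77 and 4.07). Cell 18 of mouse 1 was the 1 Mcpt8-high cell without Ctsg. The relation was one-sided, since 11 of the 23 cells with Ctsg at 100 TPM or more in mouse 1 and 6 of 15 in mouse 2 were Mcpt8-high. Over the compared cells the Spearman correlation of Ctsg with Mcpt8 was 0.42 in mouse 1 (33 cells) and 0.31 in mouse 2 (18 cells). The cells of each mouse share an animal and a column prefix.

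**Figure D3:**
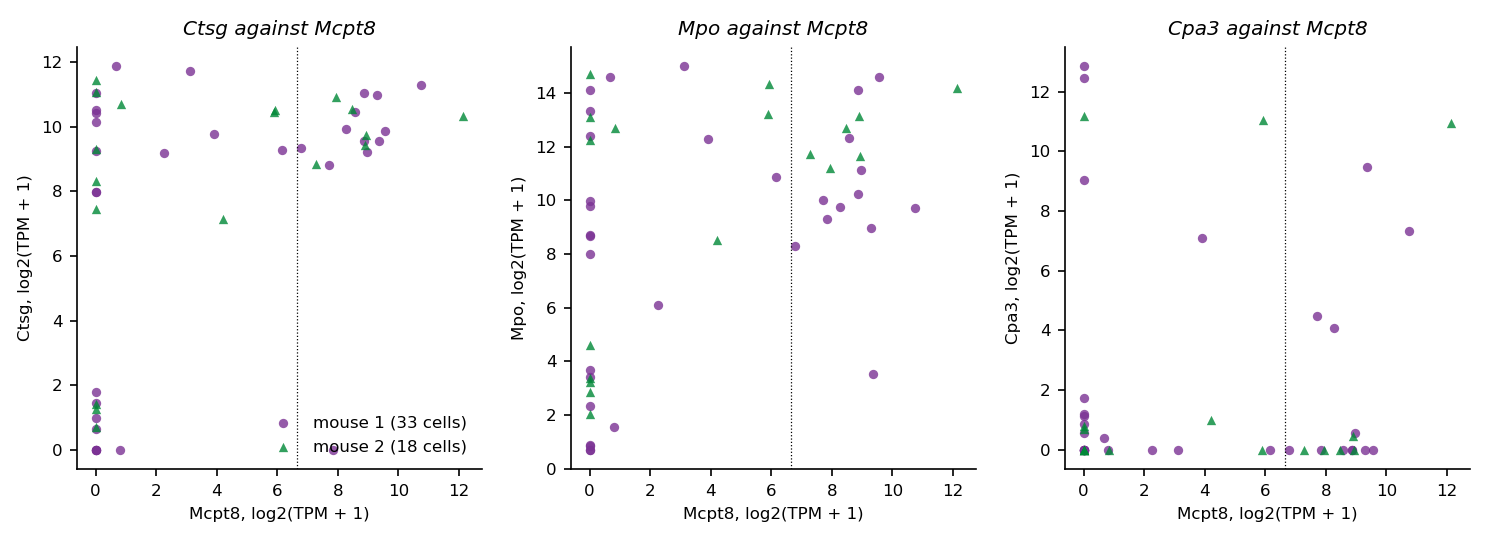
Ctsg, Mpo and Cpa3 (vertical axes) against Mcpt8 (horizontal axis), all as log2(TPM + 1), with 1 point for each compared cell; circles are the 33 cells of mouse 1, triangles the 18 of mouse 2, and the dotted line marks 100 TPM of Mcpt8. Right of the line Ctsg is high in all cells but 1, while cells left of it are either high or near 0; Cpa3 is near 0 for most cells on both sides.

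Prtn3, proteinase 3, was higher by 1.41 and 1.45, with Mcpt8-high medians of 355 and 1224 TPM and Mcpt8-low medians of 130 and 675. Without Mcpt8-low cell 52 its difference in mouse 2 was 0.64, and without cells 35 and 16 it was 0.69 in mouse 1. Clec12a, an inhibitory lectin receptor of myeloid cells, was higher by 1.49 and 1.37, and its mouse 2 difference was 0.88 to 0.95 without Mcpt8-high cell 89 or any 1 of Mcpt8-low cells 52, 54, 69, 88 and 94. Mpo, Ctsg, Irf8 and Ccl9 stayed at 1 or more in both mice without any 1 of the 51 cells and without cells 35 and 16 together. These genes are also among those with the largest differences in these same cells, so this says little about their stability. Elane, neutrophil elastase, was not among the genes that followed in both mice: its differences were 1.52 and -0.83, and it reached 10 TPM in 3 of 6 Mcpt8-high and 7 of 12 Mcpt8-low cells of mouse 2. Ms4a3, a marker of granulocyte-monocyte progenitors, differed by 1.33 and -0.43, and Ly6c2, a monocyte surface protein, by 0.56 and -1.39. In the RPKM table the same contrast gave 0.21 and 2.07 for Mpo, 0.91 and -0.34 for Ctsg and -0.39 and 0.42 for Prtn3, so the direction of Ctsg in mouse 2 and of Prtn3 in mouse 1 turned. Clec12a averaged -0.11 over both mice there. Irf8 was not among the genes matched between the TPM and RPKM values, so it could not be looked at in this way.

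**Figure D4:**
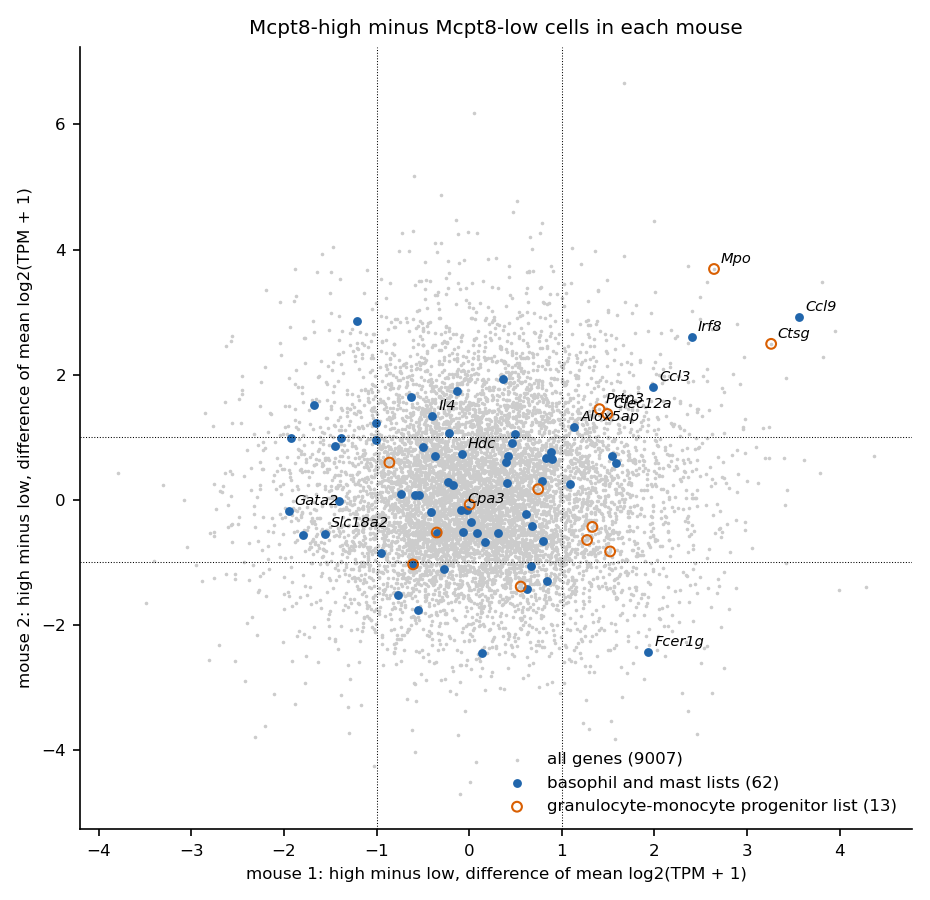
Each point is 1 of 9007 genes, placed by its Mcpt8-high minus Mcpt8-low difference of mean log2(TPM + 1) in mouse 1 (horizontal) and mouse 2 (vertical); filled blue points are the 62 basophil and mast list genes and open orange circles the 13 granulocyte-monocyte progenitor genes, with dotted lines at -1 and 1. Cpa3, Hdc and most blue points lie between the lines in at least 1 mouse, while Mpo, Ctsg, Ccl9 and Irf8 lie in the upper right corner.

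Other cell type lists had at most 1 member that was higher, or lower, in both mice. Late neutrophil genes had 0 of 9 members higher or lower in either mouse. Of all genes, 16.6% were higher and 10.4% lower in mouse 1, and 21.4% and 15.6% in mouse 2. The list's summed level was at most 255 TPM in Mcpt8-high and 691 in Mcpt8-low cells. The S100a8 limit is part of the choice of cells and bears on this list. The monocyte list had 1 of 9 members higher in both mice (11.1%, against 4.07% of all genes), a count too small to set apart. This was Ccr2, a chemokine receptor that monocytes use to leave the marrow. It had differences of 1.30 and 2.46, from 3 of 12 and 3 of 6 Mcpt8-high cells at 10 TPM or more. Without Mcpt8-high cell 24 or 41 its mouse 1 difference was 0.58 or 0.71. Eosinophil genes were at a summed level of at most 0.99 TPM in any Mcpt8-high cell.

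Of 16 erythroid genes 4 passed the filter, with medians of -1.58 and -0.79, and 1 was lower in both mice (25%, against 1.94% of all genes). This was Car2, a carbonic anhydrase of erythroid and other progenitors, with differences of -2.53 and -1.18. Car2 had a median of 26.4 TPM in Mcpt8-high and 494 in Mcpt8-low cells of mouse 1, but 1.22 and 0.69 in mouse 2, where the difference came from a few Mcpt8-low cells of up to 4874 TPM. That mouse 2 difference was -0.41 to -0.93 without any 1 of Mcpt8-high cells 64, 67, 89 and 96 or Mcpt8-low cells 52, 83, 88 and 94. Hbb-b2 and Hbb-bt had the same differences, -1.58 and -0.79, and these set the list medians. Whether the genes share reads was not examined. Both are counted among the 4 members and in the summed level. The list's summed level was 3.19 to 7749 TPM in Mcpt8-high and 84.6 to 22736 in Mcpt8-low cells of mouse 1, and 0 to 2188 and 0 to 4880 in mouse 2, and Hba-a2 was listed at 0. Megakaryocyte genes had a median of -1.26 in mouse 1 and 0.73 in mouse 2, with 4 of 5 members lower in mouse 1 (10.4% of all genes) and 2 of 5 higher in mouse 2 (21.4% of all genes). The part of these cells in the other differences was not tested beyond leaving out cells 35 and 16.

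Of 20 genes of the G2 and M phases, 13 were lower in the Mcpt8-high cells of mouse 1 (65%, against 10.4% of all genes) and 0 in mouse 2 (15.6% of all genes), with medians of -1.28 and 0.12. Mki67, the proliferation marker, differed by -1.11 and 1.19, and Ccnb1, the mitotic cyclin B1, by -1.96 and 1.17. Of 18 S phase genes, 2 were lower in both mice (11.1%, against 1.94% of all genes) and 0 higher in both (4.07% of all genes). The 2 were Pcna, the sliding clamp of DNA polymerases (-1.15 and -1.97), and Rrm2, a ribonucleotide reductase subunit (-1.80 and -1.20). Neither call was firm. Pcna fell short of -1 in 1 mouse without any 1 of Mcpt8-high cells 18, 26, 41, 64 and 96 or without cells 35 and 16 together (-0.56 to -0.86), and Rrm2 without any 1 of Mcpt8-high cells 64, 75 and 96 or Mcpt8-low cells 54, 78, 82, 83 and 94 (-0.49 to -0.94). Among stem and progenitor genes, Cd34 had Mcpt8-high medians of 537 and 572 TPM and Mcpt8-low medians of 481 and 479. Of the 14 members over the filter 0 were higher in both mice, against 4.07% of all genes, a share at which 14 genes can easily give none. Of 12 immediate early and heat shock genes over the filter, 1 was lower in both mice (8.33%, against 1.94% of all genes). Another 1 was higher in both (8.33%, against 4.07% of all genes). These counts are too small to set apart. Fos, an immediate early transcription factor, was the lower 1 (-1.29 and -2.87), and Ier3, an early response gene, the higher 1 (1.27 and 1.85). Leaving out Mcpt8-high cell 3, 41 or 46 brought the mouse 1 difference of Fos to between -0.74 and -0.96, and leaving out cell 3, 26, 39 or 75 brought 1 difference of Ier3 to between 0.64 and 0.97.

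**Figure D5:**
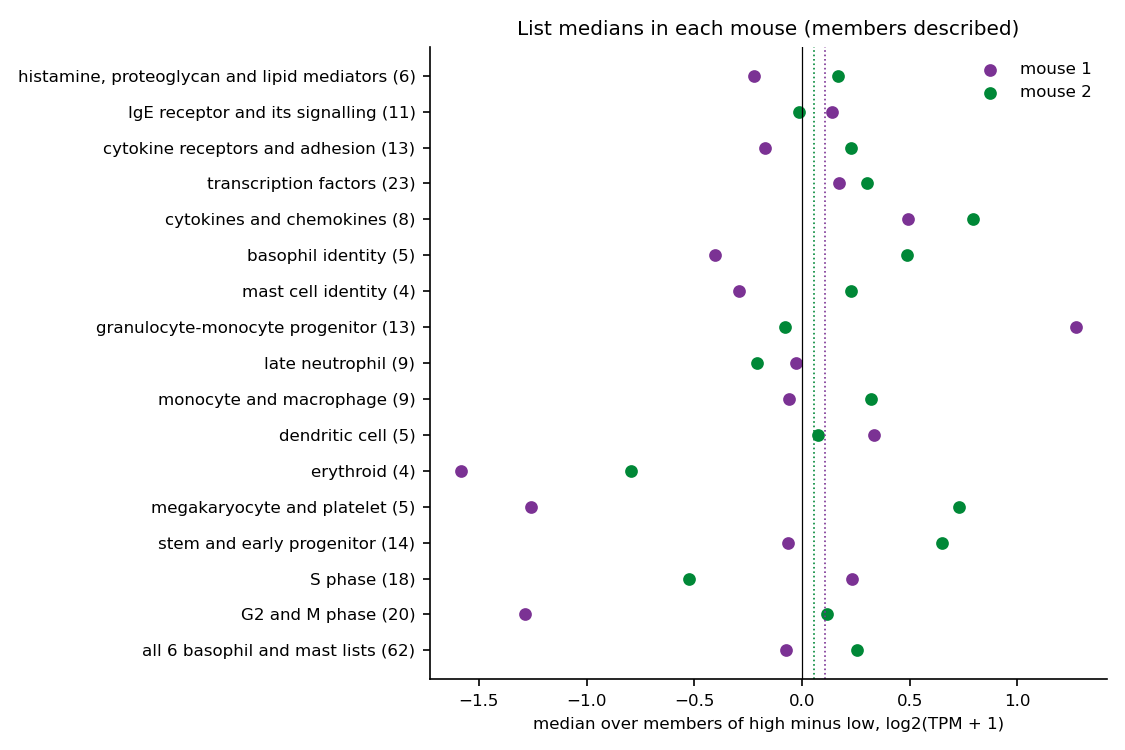
Median over the members of each list of the Mcpt8-high minus Mcpt8-low difference, in log2(TPM + 1), with 1 point for each mouse and the number of members over the filter in brackets; dotted lines are the medians over all genes, 0.11 in mouse 1 and 0.06 in mouse 2. Most basophil and mast lists lie near the all-gene lines or on either side of 0. The cytokine and chemokine list lies above the lines in both mice. The erythroid list lies below them in both, at medians set by Hbb-b2 and Hbb-bt, which had the same differences. The megakaryocyte list lies below the lines in mouse 1 and above them in mouse 2. The G2 and M phase and granulocyte-monocyte progenitor lists are far from them in mouse 1.

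By a rule of size over all genes, the 25 genes highest in both mice and at 10 TPM or more in at least 50% of the Mcpt8-high cells of each were mostly outside any blood lineage list. All 24 lists together hold 323 genes with a row, so most of the 9007 genes are outside them too. Cops5, a subunit of the COP9 signalosome that trims ubiquitin-like tags from ubiquitin ligases, led with differences of 3.81 and 3.49. It had Mcpt8-high medians of 193 and 151 TPM, and Mcpt8-low medians of 0 and 27.96. Ccl9 came next, then Trex1, a DNA exonuclease that clears cytosolic DNA (2.89 and 2.80), and Ola1, an ATPase (3.96 and 2.69). Mpo, Ctsg and Irf8 were in this set, with Ctsz, a lysosomal cathepsin (2.63 and 2.73), and Anxa2, a membrane-binding annexin (3.82 and 2.28). Ctsz reached 10 TPM in 9 of 12 Mcpt8-high and 10 of 21 Mcpt8-low cells of mouse 1, and in 6 of 6 and 8 of 12 of mouse 2. Anxa2 had Mcpt8-high medians of 2049 and 937 TPM against 558 and 601.

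The others of the 25 were genes that many cell types use. Pinx1, Fbl and Gtf3c6 act in the nucleolus, at telomeres or in RNA polymerase III transcription, and differed by 2.68 and 2.74, 2.36 and 2.51, and 2.49 and 2.89. Shmt2 and Cs are mitochondrial enzymes of serine and citrate metabolism (2.59 and 2.79 for Shmt2, 2.57 and 2.10 for Cs). Copg1 and Stt3a act in vesicle coats and in N-glycosylation (2.49 and 3.24, and 2.36 and 3.73). Dock2, a Rac activator of blood cells, differed by 2.17 and 2.12. Mrps7, Pcid2, Ube2b, Rars, Snrnp25, Snx14, Tmem223 and Atf2 completed the set, with smaller-mouse differences between 2.17 and 2.56. All 25 overlapped between Mcpt8-high and Mcpt8-low cells in both mice. Each kept its call without any 1 of the 51 cells. They were picked for large differences in these same cells, so this says little about their stability. In the RPKM table the mean difference over both mice turned for Ola1 (-0.14), Pinx1 (-0.050), Gtf3c6 (-0.24) and Fbl (-0.10).

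The 15 genes lowest in both mice were taken from the 52 that reached 10 TPM in at least 50% of the Mcpt8-low cells of each. Nt5c3, a pyrimidine nucleotidase, led with -2.81 and -2.57. It reached 10 TPM in 4 of 12 and 3 of 6 Mcpt8-high cells, against 13 of 21 and 8 of 12 Mcpt8-low cells. Mina, a ribosomal oxygenase, differed by -2.53 and -2.58, and Zfand6, a zinc finger protein, by -2.42 and -2.91. In the RPKM table the mean over both mice was 0.0046 for Nt5c3 and 0.19 for Zfand6, so neither was lower there. Zw10, a protein of the mitotic checkpoint, differed by -2.70 and -2.33, Surf4, a cargo receptor of the endoplasmic reticulum, by -2.29 and -2.16, and Rpa3, a single-stranded DNA binding subunit, by -1.88 and -3.27. Mrpl34, Rsrc2, Arfgap2, Lrrcc1, Nxt1, Rbmxl1, Mrpl27, Cryzl1 and Ppp1cc made up the rest. None of the 15 is a gene of the basophil, mast cell or granule lists. Only 62 of the 9007 genes are in the 6 basophil and mast lists, so 15 genes can easily hold none.

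The genes most like Mcpt8 in pattern, by the smaller of the 2 mice's Spearman correlations over the compared cells, were Ube3a (0.52 over 33 cells and 0.61 over 18), Palm (0.48 and 0.52), Cops5 (0.47 and 0.55), Ppil3 (0.47 and 0.50), Stt3a (0.45 and 0.66), Cs (0.45 and 0.48), Tbrg4 (0.58 and 0.45), Ccl9 (0.44 and 0.51), Mvp (0.43 and 0.49) and Pcid2 (0.46 and 0.43). The correlations of all genes with Mcpt8 had a 95th percentile of 0.34 in mouse 1 and 0.46 in mouse 2. All 10 genes were picked for this measure, which is given as a description of sparse values from cells that share an animal and a column prefix. Cpa3 had -0.06 and 0.05, Hdc 0.20 and -0.09, and Gata2 -0.26 and -0.08.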

How the data were processed

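The authors deposited a TPM table, named for RSEM, with 23955 gene symbols and a total of 1000000 per cell, and an RPKM table named for AltAnalyze with 9310 Ensembl genes, most values of which lie at a floor of their gene. Bowtie2, TopHat2 and RSEM, and the builds mm10 and mm9, are named in the submitters' processing notes; versions, and which build belongs to which table, are not given in the sources used here. All 96 libraries carried a sample label, and 0 columns were left without one.

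From the TPM values, log2(TPM + 1) was computed with Python 3.11.15 and pandas 2.3.3. A gene was kept when its mean over the compared cells reached 1 TPM in each mouse. The difference was taken within each mouse, and a gene was called at 1 or more, or -1 or less, in both. The calculation was checked on simulated data with known changes. Exact (Clopper-Pearson) intervals cover the counting of cells only, and read depth is unknown. No doublet caller was run. Promoters and gene positions came from RefSeq (GRCm38.p6) and GENCODE (GRCm38). The members and the 24 gene lists were chosen with earlier results of these data known. Named genes were the list members described, the 25 highest and 15 lowest by the smaller difference among genes that reached 10 TPM in at least 50% of the high or the low cells of each mouse, leaving out Gm and Rik names, and the 10 most like Mcpt8. Alternatives changed the pseudocount, the filter, the Mcpt8 and class II limits, the centring, the detected-gene number, the table and the cells left out.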

Additional observations from a re-analysis of the deposited data

Results flagged for a closer look

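Among 13 genes looked at in the 6 Mcpt8-high cells of mouse 2, a cell stood far from the other five in 3 genes, by a gap over range above 0.625. These are cells of 1 mouse and not replicates, so a flag describes this cell only. Chance flags about 1 in 20 such groups, and genes mostly listed at 0 are flagged by any cell that has them. Cell 64 was flagged for Cpa3 at 1979 TPM (gap over range 0.959) and Hdc at 544 TPM (1.0). Cell 55 was flagged for Cyp11a1 at 280 TPM (1.0), with its Cpa3 and Hdc listed at 0.

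Outside the compared cells, 1 cell reached the Mcpt8 threshold. Cell 13 of mouse 1, left out for S100a8, had Mcpt8 at 317 TPM.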

How the results depend on the processing

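Of 9007 genes, 367 were higher and 175 lower in both mice, and the 62 basophil and mast genes had 4 higher and a median difference, averaged over the mice, of 0.09. With a pseudocount of 10 the 3 counts were 61, 29 and 2. With a Mcpt8 threshold of 30 TPM, 580 genes were higher, of which 259 were also among the 367, and 110 lower. At 300 TPM the basophil and mast count was 7. The count of all genes at 300 TPM is not given here, so this is not read as a result about these genes. With all cells, 1300 were higher, 8 of them basophil and mast genes, whose median was 0.43, and Alox5ap and Irf8 turned to -0.17 and -0.36. With the number of detected genes removed, 272 were lower. In the RPKM table, over 6776 shared genes, 26 were higher and 17 lower and 0 basophil and mast genes were higher, against 299 and 148 in TPM over the same genes; the cause was not tested. There Clec12a (-0.11), Ola1 (-0.14), Pinx1 (-0.050), Gtf3c6 (-0.24), Fbl (-0.10), Nt5c3 (0.0046) and Zfand6 (0.19) turned. Each mouse alone gave 1495 to 1925 higher, 938 to 1407 lower, 8 to 13 basophil and mast genes, and medians of -0.07 to 0.26. Leaving out each Mcpt8-high cell gave 323 to 453, 160 to 259, 3 to 4, and 0.01 to 0.15. Limits of 100 TPM for H2-Aa and S100a8 kept the same cells. No paired analysis was possible because the mice share no cell number and no result comes from a test. TPM keeps no depth, so a gene listed at 0 may be undetected at this depth.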
